A study of Mus musculus with 6 samples.

Results

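Barcodes carrying the transcripts of mature oligodendrocytes were examined in Drop-seq data of hippocampal CA1, where each droplet gives the RNA caught on 1 bead a barcode and each molecule a unique molecular identifier (UMI). A barcode was selected on detecting at least 4 of 9 oligodendrocyte genes (Mog, Opalin, Ermn, Mal, Mag, Cldn11, Tspan2, Mobp, Trf) and at most 1 of 5 genes of precursors and neurons (Pdgfra, Cspg4, Slc17a7, Gad1, Gad2), provided that it held over 500 but no more than 8000 genes and that mitochondrial UMIs did not exceed 40%. This gave 259 members of 1632 barcodes within the limits and of 6000 in the table, and the other 1373 barcodes within the limits served for comparison. CA1 came from male C57Bl6 mice injected once at postnatal day 28 and taken 6 h later, 3 with placebo and 3 with 5000 IU/kg recombinant human erythropoietin (EPO). The mice are the replicates, with 1 library each, and barcodes of a mouse are not. Members numbered 77, 17 and 32 in placebo mice 1, 3 and 5 and 18, 86 and 29 in EPO mice 2, 4 and 6. The labels also carry D1 (placebo mice 1 and 3, EPO mouse 2) or D2 (placebo mouse 5, EPO mice 4 and 6), whose meaning is not stated.

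Oligodendrocytes wrap axons in myelin, a stack of compacted membrane held together by proteins such as MBP and rich in cholesterol and galactolipids. They arise from precursors that carry PDGFRA and NG2 (Cspg4), pass through a newly formed stage and, once mature, differ among themselves in genes such as Ptgds, Apod and Car2. The transcription factors OLIG1, OLIG2, SOX10 and MYRF mark or drive the lineage.

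The rule gathered barcodes of 2 kinds, and only 1 of them bore out the name. UMIs in 25 myelin protein genes outside the rule made up between 0.128% and 25.9% of a member's UMIs, with a gap between 1.59% and 3.56%. Above 2%, a limit set after seeing this gap, lay 171 members with a median of 16.7%, called high-myelin members here. The other 88 members had a median of 0.448% and are called low-myelin members. Barcodes outside the class had a lower median of 0.154%, with a 90th percentile of 0.464%. In low-myelin members neuronal genes were high instead, as 11 of them (Snap25 and Syt1 among them) took a median of 4.32% of UMIs there, 0.121% in high-myelin members and 3.01% outside the class. The neuronal share reached 1% in 74 of 88 low-myelin and in 2 of 171 high-myelin members. Slc17a7, the vesicular glutamate transporter of excitatory neurons and 1 of the 5 genes of which the rule allows 1, was detected in 57 low-myelin and 2 high-myelin members.

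**Figure D1:**
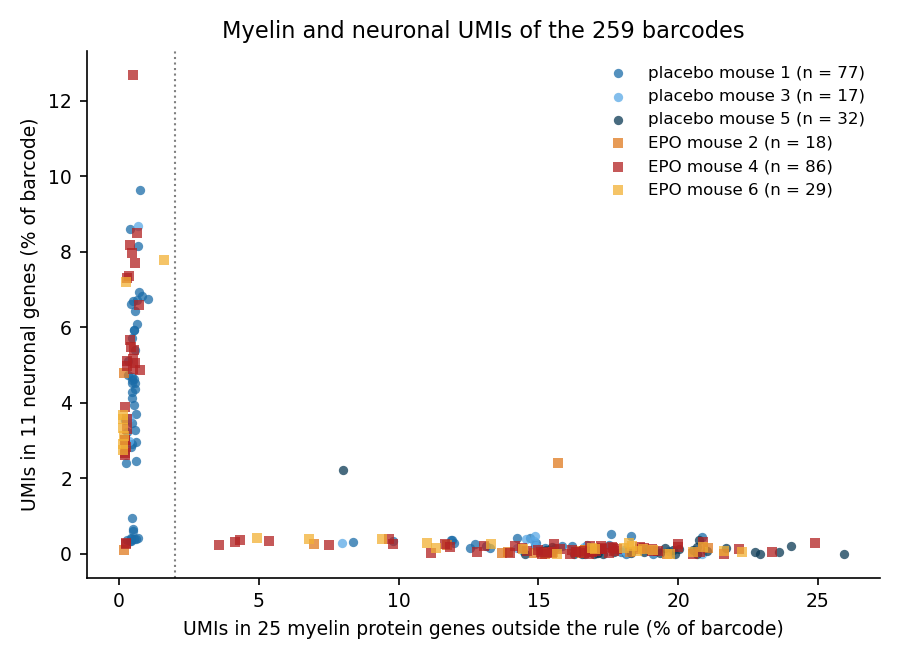
Each point is 1 of the 259 barcodes, with the percent of its UMIs in 25 myelin protein genes on the horizontal axis and in 11 neuronal genes on the vertical axis. The 171 high-myelin members lie at or above 3.56% myelin UMIs with few neuronal UMIs, and the 88 low-myelin members at or below 1.59%, mostly with more neuronal UMIs.

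Depth and the threshold of the rule went along with this division. Low-myelin members had a median of 7638 UMIs, high-myelin members 4450 and barcodes outside the class 2373. All 9 rule genes were detected in 129 high-myelin members and 1 low-myelin member, whereas of the 45 members with exactly 4 rule genes 41 were low-myelin. Just outside the threshold, 72 barcodes had exactly 3 rule genes and passed the other limits, with a median myelin share of 0.363% against 0.363% in the members with exactly 4. After each barcode was thinned to 700 UMIs, Mog, a protein of the outermost myelin membrane, was detected in 76.6% of high-myelin members, 2.27% of low-myelin members and 0.729% of the other barcodes. Without thinning these shares were 95.3%, 28.4% and 3.35%. Mog is a gene of the rule, so its shares in members against the other barcodes follow in part from the selection. Ugt8a, an enzyme of myelin lipids outside the rule, was detected after thinning in 64.9% of high-myelin members. It was detected in 2.27% of low-myelin members and 1.31% of the other barcodes. Mbp was still detected in 10.6% of the other barcodes after thinning. In barcodes with at most 300 genes, myelin protein genes summed to between 5733 and 10218 CPM (UMIs scaled to the same total in every library, counts per 1e6), above the 1665 to 4809 CPM of low-myelin members. Whether free RNA or joined cells gave low-myelin members their rule genes was not tested. No doublet caller was run.

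Low-myelin members came unevenly from the mice. Placebo mouse 1 held 47, placebo mouse 3 held 4 and placebo mouse 5 none, while EPO mice 2, 4 and 6 held 2, 27 and 8. In placebo mouse 1 they also carried hemoglobin and other red cell transcripts, at 11088 CPM against 794 CPM in its high-myelin members. The other barcodes of that mouse held 5074 CPM of these transcripts, and its barcodes with at most 300 genes 12085 CPM. In EPO mouse 2 the pair of low-myelin members carried 15514 CPM of 7 endothelial and mural genes.

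Libraries of placebo mouse 1 and EPO mouse 4 shared barcodes. The same sequence had at least 100 UMIs in both for 53 barcodes, of the 55 shared in this way between any mice. UMIs were more numerous in placebo mouse 1 for all 53, with a median ratio of 3.93 and a range of 3.15 to 5.87. In 10 of the 53 myelin UMIs were high in both libraries, in 43 they were low in both and in 0 they were high in 1 only. These sequences accounted for 47 members (20 high-myelin and 27 low-myelin), 37 of them in placebo mouse 1 and 10 in EPO mouse 4. Results are therefore given also without them, with 212 members left, 151 of them high-myelin. That alternative and the high-myelin members were chosen after seeing the data.

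**Figure D2:**
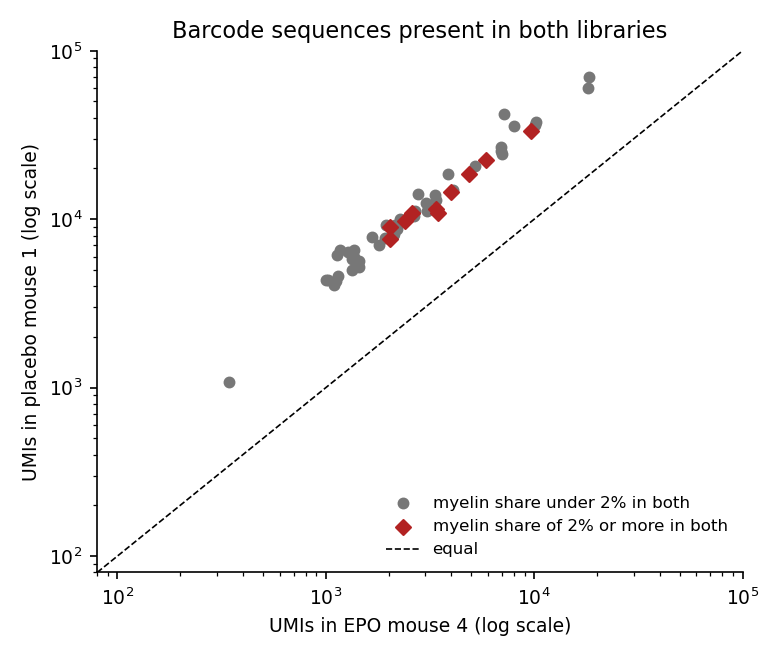
Each point is 1 barcode sequence with at least 100 UMIs in both placebo mouse 1 (vertical axis) and EPO mouse 4 (horizontal axis), on log scales, with the line of equal UMIs dashed. All 53 sequences lie above the line, and the 10 with high myelin in one library have it in the other.

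High-myelin members carried the transcripts of compact myelin at levels far above all other barcodes. Since the rule chose them on such genes, these levels are a description. Mbp, which glues the cytoplasmic faces of the membrane, stood at 7863, 8915 and 8366 CPM in placebo mice 1, 3 and 5 and at 10509, 7301 and 9230 CPM in EPO mice 2, 4 and 6. The groups overlapped, with a mean of 8697 ± 1129 CPM (SD, n = 6 mice), and the other barcodes averaged 240 ± 157 CPM. Cnp, an enzyme of non-compact myelin, averaged 4869 ± 643 CPM against 74.0 ± 46.0 CPM. CPM are not per length, so levels of different genes are not compared.

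Over all members, the 20 genes outside the rule with the largest ratio to the other barcodes, on the scale of log2(CPM + 5), went down to Tmem125 at 4.41. They included enzymes of myelin lipids, namely Ugt8a, which makes galactosylceramide (5.81), Fa2h, which hydroxylates its fatty acids (4.59), and Aspa, which frees acetate from N-acetylaspartate (4.80). Gjb1 (4.63) and Gjc3 (4.60) encode connexins, the family of gap junction proteins. Receptors for lysophospholipids were present with Lpar1 (4.68) and S1pr5 (4.61), beside Enpp2 (4.89), the enzyme that makes lysophosphatidic acid. Nkx6-2, a homeobox factor of oligodendrocytes, stood at 4.80 and Apod, a lipid carrier of mature oligodendrocytes, at 4.84. Also among them were Cnp, Gsn, Gm21984, Tmem88b, Adamts4, Mbp and Plekhh1.

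By groups, all 25 myelin protein genes were higher in high-myelin members than in the other barcodes in each of 6 mice, as were 17 of 20 genes of myelin lipids, 9 of 12 transcription factors of the lineage and 10 of 15 genes of late mature oligodendrocytes. Of 3659 genes at 50 CPM or more in the class, 23.7% were higher and 29.7% lower in all mice. Of 12 genes of newly formed oligodendrocytes 2 were higher in all mice. All 11 neuronal, 7 astrocytic, 9 microglial and 7 endothelial and mural genes in the table were lower in each mouse, and so were 5 of 8 precursor genes. Pdgfra and Cspg4 are among these precursor genes and also among the 5 negative genes of the rule, which were all lower. The precursor count thus follows in part from the selection. Olig1 averaged 950 ± 260 CPM, Sox10 166 ± 32.6 CPM and Enpp6, a choline phosphodiesterase of newly formed cells, 223 ± 139 CPM.

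Promoters of Cnp and Apod are shown because both genes mark the class and the upstream windows hold a core motif of SOX factors, the family of SOX10. RefSeq sequence (GRCm38.p6) of the 250 bases before the start is given on the strand of the gene, for Cnp at chr11:100574689-100574938 (plus strand) and for Apod at chr16:31314809-31315058 (minus strand). Capitals mark the motif.
Cnp: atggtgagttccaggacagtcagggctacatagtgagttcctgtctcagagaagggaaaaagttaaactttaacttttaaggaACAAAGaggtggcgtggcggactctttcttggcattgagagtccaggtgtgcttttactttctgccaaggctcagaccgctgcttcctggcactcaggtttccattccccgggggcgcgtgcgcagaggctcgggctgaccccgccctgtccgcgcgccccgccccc
Apod: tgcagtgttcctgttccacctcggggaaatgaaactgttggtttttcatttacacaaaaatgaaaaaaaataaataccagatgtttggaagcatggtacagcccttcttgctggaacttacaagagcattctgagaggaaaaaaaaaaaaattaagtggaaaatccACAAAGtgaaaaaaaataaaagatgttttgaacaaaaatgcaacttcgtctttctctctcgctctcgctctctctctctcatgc
ACAAAG began 167 bases before the start in Cnp and 84 bases before it in Apod. The letters ACAAAG and ACAATG and their reverse complements CTTTGT and CATTGT were searched. At least 1 of them was in 7 of 20 promoters (35.0%) of the 13 described genes that had a promoter, and in 25.2% of all 32851 promoters of this length. By gene, 5 of these 13 held a motif (38.5%), against 28.2% of all genes with a promoter. A match describes letters only.

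The share of members did not differ between treatments beyond the spread of the mice. The share of barcodes within the limits was 28%, 18.9% and 10.0% in placebo mice 1, 3 and 5 and 7.11%, 21.2% and 10.0% in EPO mice 2, 4 and 6. Groups overlapped, with means of 19.0% ± 8.98 and 12.8% ± 7.46 (SD, n = 3), and the difference of -6.19 percentage points did not pass the two-sided exact permutation test (p = 0.4), whose smallest p for 3 against 3 is 0.1. Within D1 the difference was -16.3 and within D2 5.59 percentage points. Counting error alone, as the exact (Clopper-Pearson) 95% interval, spanned 22.8% to 33.7% in placebo mouse 1 and 4.27% to 11% in EPO mouse 2. Without the shared barcodes the difference was -2.83 percentage points (exact permutation p = 0.7).

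High-myelin members took 10.9%, 14.4% and 10.0% of barcodes in placebo mice and 6.32%, 14.6% and 7.24% in EPO mice. Means were 11.8% ± 2.34 and 9.38% ± 4.52, and the difference of -2.42 percentage points again did not pass (exact permutation p = 0.5), with -6.35 within D1 and 0.873 within D2. The groups overlapped. With the shared barcodes left out, placebo mouse 1 stood at 8.85% and EPO mouse 4 at 13.5%, and the difference was -2.07 percentage points (exact permutation p = 0.5).

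Myelin protein genes outside the rule took 5.37%, 10.0% and 17.8% of members' UMIs in placebo mice 1, 3 and 5 and 13.4%, 7.80% and 6.67% in EPO mice 2, 4 and 6. The difference of -1.79 percentage points (exact permutation p = 0.7) was 5.67 within D1 and -10.6 within D2. Low-myelin members made up 47 of 77 members in placebo mouse 1, which had the lowest share, and 0 of 32 in placebo mouse 5, which had the highest, and their part in the difference was not tested. Without the shared barcodes placebo mouse 1 rose to 8.08% and EPO mouse 4 fell to 7.22%, EPO mouse 6 was then the lowest, and the difference was -2.88 percentage points (exact permutation p = 0.5). In high-myelin members, chosen by these same genes, the share was 14.1%, 16.3% and 17.8% in placebo mice and 15%, 15.7% and 15.9% in EPO mice (means 16.1% ± 1.86 and 15.5% ± 0.479, exact permutation p = 0.7). The difference there was -1.02 percentage points without the shared barcodes (exact permutation p = 0.3).

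**Figure D3:**
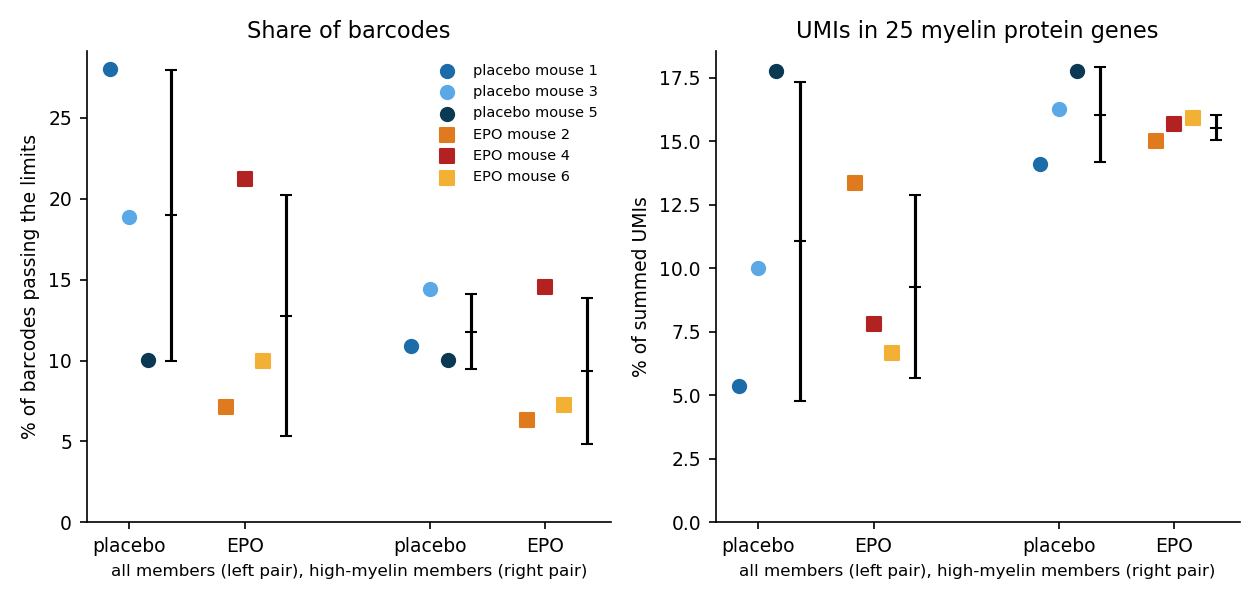
Points are the 3 placebo and 3 EPO mice, with the percent of barcodes within the limits that were members and the percent of members' UMIs in 25 myelin protein genes, for all members and for high-myelin members, and the black bars give mean ± SD. Treatments overlap in each panel, and the myelin share lies between 14.1% and 17.8% once low-myelin members are left out.

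No gene passed the test between EPO and placebo. UMIs were summed per mouse and compared by edgeR's quasi-likelihood test with Benjamini-Hochberg adjustment, which called 0 of 3753 genes over all members (0%) and 0 of 1874 over high-myelin members (0%). At an unadjusted p under 0.05 there were 12 and 37 genes, and DESeq2 and limma called 0 in both. Both counts lie below the 5% of genes tested that would fall there with no difference. The test was thus conservative here, and 0 calls do not show equal expression. With no filter on low counts 10 of 16268 and 3 of 13212 genes were called. Without the shared barcodes the count was 0 for both sets.

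The smallest p in both sets belonged to Plcl1, a phospholipase C-like protein without catalytic activity. In high-myelin members it stood at 310, 401 and 300 CPM in placebo mice and at 93.3, 194 and 184 CPM in EPO mice, with a log2 fold change of -1.05 ± 0.30 (SE, edgeR adjusted p = 0.999). Next came Huwe1, a ubiquitin ligase (1.11), Cst3, cystatin C (-0.95), Marcks, a substrate of protein kinase C (1.42), and Cck, a neuropeptide (-1.94), all as log2 fold changes in high-myelin members. Over all members Mrps21 (1.91), Hif1a (1.31), Pou3f3 (-0.89) and Hbb-bs (-4.08) followed. The value of Hbb-bs rests on 1 mouse. The 5 red cell genes that include it summed to 7389 CPM in placebo mouse 1 but 117 and 10.0 CPM in placebo mice 3 and 5. In EPO mice 2, 4 and 6 they summed to 166, 96.1 and 64.9 CPM. Hif1a, the oxygen-regulated transcription factor, reached at most 36.1 CPM in placebo mice and 66.5, 63.5 and 72.1 CPM in EPO mice over all members. None of these passed adjustment. Plcl1 did not overlap between the groups, which held for 7.26% of genes tested in high-myelin members and for 4.05% over all members.

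No myelin gene passed the test between treatments in high-myelin members. Of 24 myelin protein genes tested 0 were called, with a median log2 fold change of -0.06 against -0.02 over all genes tested. Mbp differed by 0.06 ± 0.20 and Mog by 0.09 ± 0.20 (log2, SE). The 4 tested genes of newly formed oligodendrocytes had a median of 0.82, among them the kinase Fyn at 1.02 ± 0.39 and Bcas1 at 0.60 ± 0.26, and 0 of 4 were called. The 10 late mature genes tested had a median of -0.18 with 0 called. Epor, the receptor of EPO, had 0 UMIs in members of every mouse, which at this depth does not show its absence. Jak2, the kinase it signals through, ranged from 56.0 to 123 CPM in high-myelin members.

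Among high-myelin members, 15 of 23 myelin protein genes varied beyond counting error in every mouse, and their median was not above that of all genes. For each gene the variance over the barcodes of a mouse beyond Poisson error was taken as a squared coefficient of variation. Among high-myelin members it was above 0 in each of 6 mice for these 15 genes and for 29.3% of 944 genes, with medians of 0.159 over the 23 myelin protein genes and 0.182 over all. At an equal depth of 700 UMIs this held for 2 of 7 myelin protein genes and for 12 of 48 genes. Over all members it held for 21 of 23 myelin protein genes and for 47.9% of 1244 genes, with medians of 0.933 and 0.357. Those values are a description, since the members comprise both kinds, and the 2% limit on these same genes, by leaving out one kind, had to lower them. Without the shared barcodes the counts were 19 of 23 over all members and 15 of 23 among high-myelin members.

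Myelin protein genes ranged widely in this measure. The excess variance of Mbp was 0.830 ± 0.548 over all members and 0.125 ± 0.034 in high-myelin members (SD, n = 6 mice). The most uneven myelin protein genes there were Nfasc, the adhesion molecule neurofascin (1.15 ± 0.705), Cd9, a tetraspanin (0.994 ± 0.682), and Sirt2, a deacetylase abundant in myelin (0.775 ± 0.132). Each of these 4 genes was above 0 in 6 of 6 mice, with a two-sided exact sign-flip p of 0.03125, the smallest 6 mice can give and not adjusted for the number of genes. Nfasc, Cd9 and Sirt2 were picked for high values of this same measure, so for them this p adds no support. Ptgds, the prostaglandin D2 synthase, stood at 1.34 ± 0.406, rank 10 of 944 genes.

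**Figure D4:**
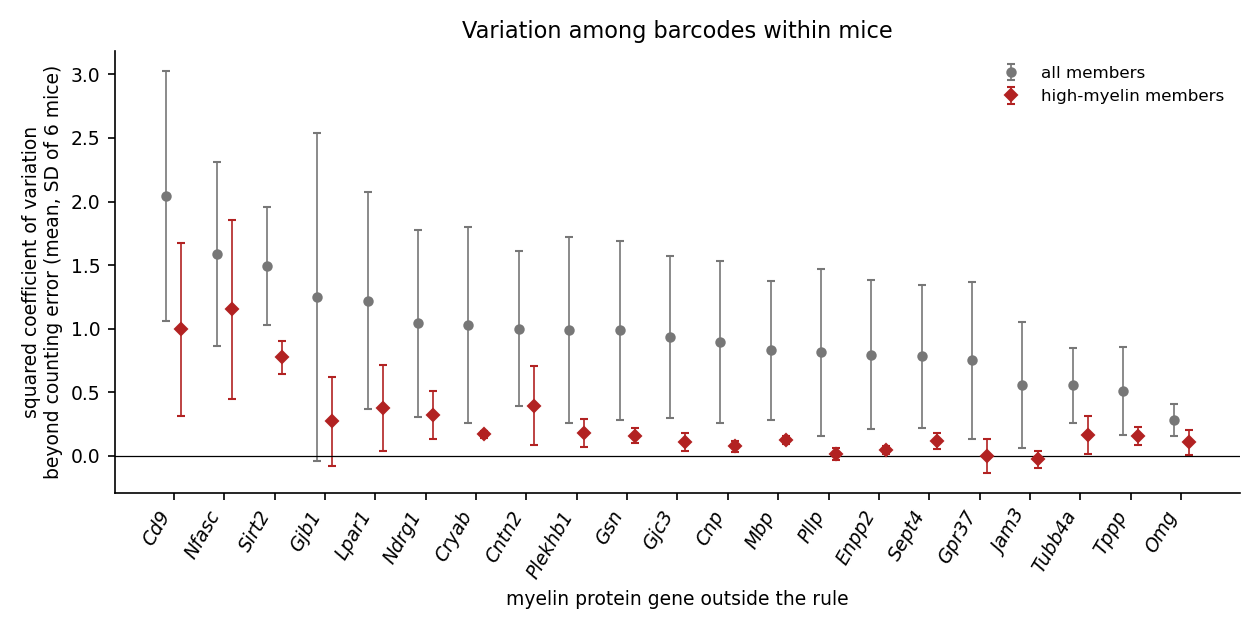
Points give the mean squared coefficient of variation beyond counting error (error bars, SD of 6 mice) of 21 myelin protein genes outside the rule, for all members and for high-myelin members. In high-myelin members Nfasc at 1.15 is the highest and Mbp stands at 0.125, and their lower values follow from choosing them by the summed level of these genes.

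Late mature genes were each detected in a part of high-myelin members at 700 UMIs, a depth at which a gene present can be missed. After thinning to 700 UMIs, Ptgds was detected in 56.1% of high-myelin members, Apod in 67.3% and Car2, carbonic anhydrase 2, in 67.8%. In the other barcodes the shares were 2.99%, 2.55% and 8.31% at the same depth. Without thinning, at medians of 4450 and 2373 UMIs, Ptgds was detected in 77.8% and 10.7%. Apod was then detected in 87.7% and 10.1%, and Car2 in 89.5% and 19.2%. After thinning, Ptgds was found in 61.5% and 56.2% of high-myelin members in placebo mice 3 and 5 and in 57.6% and 61.9% in EPO mice 4 and 6, with 15 of 30 in placebo mouse 1 and 8 of 16 in EPO mouse 2. Of 171 thinned high-myelin members 56 had all 3 genes, 66 had 2, 27 had 1 and 22 had 0. Whether these counts differ from those that sampling alone would give was not tested.

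High-myelin members without a Ptgds UMI among the 700 drawn carried more Lsamp, Pcdh17 and Nfasc, and those with one more Gstp1, Apoe and Glul. The sides thus differ in the level of Ptgds, at 468 ± 359 and 5363 ± 1748 CPM from all UMIs (SD, n = 6 mice), and members "without Ptgds" can hold UMIs of it. The 96 members with Ptgds and the 75 without were compared within mice by edgeR with the mouse as a block, which called 41 of 907 genes (4.52%), 15 higher with Ptgds (1.65%) and 26 lower (2.87%). Of these calls only 10 were higher and 13 lower in every mouse. Lsamp, an adhesion molecule of the IgLON family, stood at 364, 264 and 258 CPM without and 43.3, 24.5 and 52.6 CPM with Ptgds in placebo mice 1, 3 and 5. In EPO mice 2, 4 and 6 it was 165, 190 and 602 CPM without and 21.5, 20.8 and 90.4 CPM with Ptgds. It was thus lower with Ptgds in 6 of 6 mice and the sides did not overlap, with a log2 fold change of -2.96 ± 0.32 (SE, edgeR adjusted p = 1.48e-08). The sides with Ptgds held only 40806 and 38050 UMIs of all genes in placebo mice 3 and 5 and 46451 in EPO mouse 2. Lsamp values there thus rest on very few UMIs, near the floor.

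Pcdh17, a protocadherin, changed by -2.24 ± 0.26 (edgeR adjusted p = 4.1e-08), Nfasc by -1.25 ± 0.18 (edgeR adjusted p = 3.83e-06) and Sirt2 by -0.88 ± 0.16 (edgeR adjusted p = 0.000262). In the other direction Gstp1, a glutathione transferase of mature oligodendrocytes, was 309, 226 and 532 CPM without and 571, 1372 and 578 CPM with Ptgds in placebo mice, and 577, 205 and 219 against 1141, 566 and 697 CPM in EPO mice. It was higher with Ptgds in each mouse, by 1.13 ± 0.21 (edgeR adjusted p = 0.000361). Apoe, a lipid carrier, rose by 1.25 ± 0.28, Glul, glutamine synthetase, by 0.86 ± 0.18, Sept4, a septin of myelin, by 0.67 ± 0.14 and Cntn2, an adhesion molecule beside the node, by 0.64 ± 0.18 (log2, SE).

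Among the groups, 3 of 23 myelin protein genes tested were higher with Ptgds (Sept4, Cntn2 and the small heat shock protein Cryab) and 2 lower (Nfasc, Sirt2), with 18 not called. Of 12 genes of myelin lipids 0 rose and 3 fell, among them Hmgcs1 (-0.75 ± 0.19) of cholesterol synthesis and Elovl7 (-0.76 ± 0.18), which elongates fatty acids, with a median of -0.14 against 0.01 over all genes tested. Enpp6 fell by 1.88 on the log2 scale (edgeR adjusted p = 0.000262), as 1 of 2 tested genes of newly formed oligodendrocytes. Of 7 late mature genes 2 rose, Qdpr by 0.58 ± 0.15 and Car2 by 0.48 ± 0.13. Car2, Cryab and Enpp6 were called but did not keep their direction in every mouse. Of 2 neuronal genes tested 0 were called. Also higher with Ptgds in every mouse were Hsp90aa1, Grb14, Rnf7 and Tmod1, and lower Ubl3, Lcorl, Pcm1, Secisbp2l and Bace1.

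**Figure D5:**
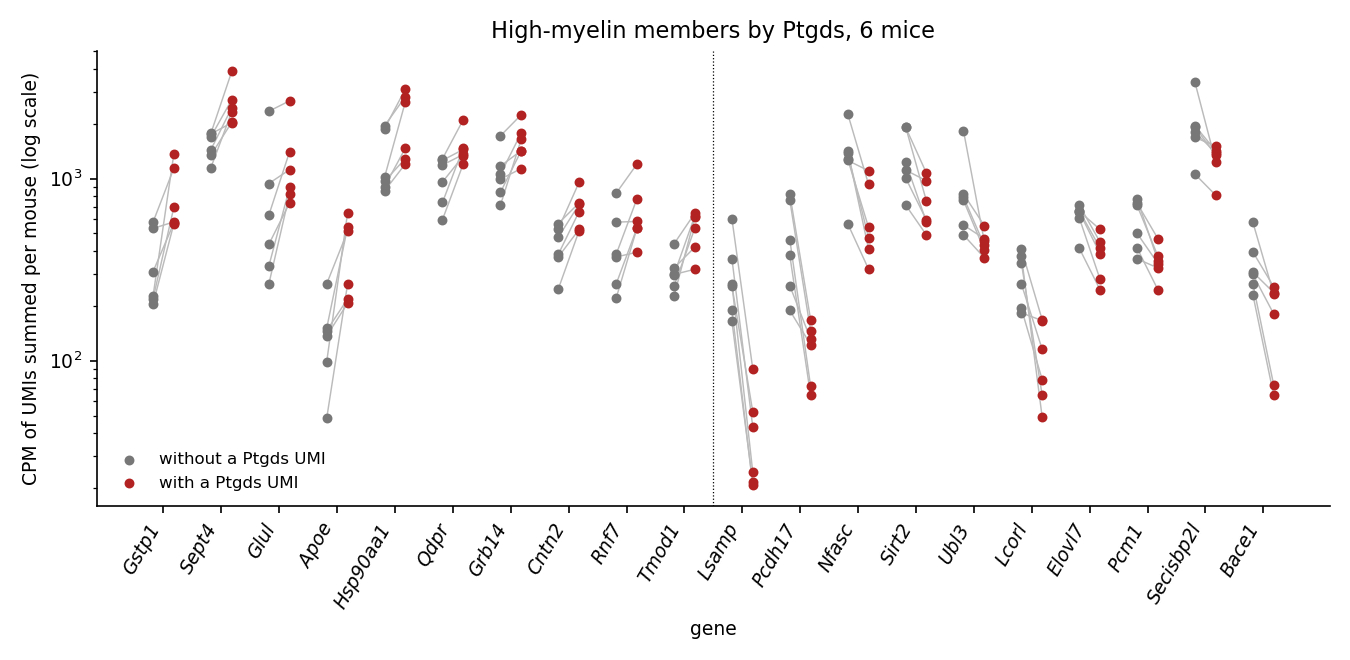
Points are CPM of UMIs summed per mouse over high-myelin members without and with a Ptgds UMI after thinning, on a log scale, with lines joining both sides of each of 6 mice, for the 20 genes named by the rule. Lsamp is lower with Ptgds in each mouse, falling from 364 to 43.3 CPM in placebo mouse 1, and Gstp1 is higher in each.

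Members without Ptgds had a median of 5319 UMIs and 10.4% mitochondrial UMIs, against 4265 UMIs and 7.74% with it, while the myelin share was 16.9% and 16.7%. The part of depth and of mitochondrial share in these differences was not tested. Drawing the 700 UMIs with another seed gave 63 called genes over 5 mice, 33 of the 41 among them in the same direction, but splitting on all UMIs of a barcode, which left only 4 mice with enough barcodes on both sides, kept 1 (Map1b). In that setting, which changes both the split and the mice, Pcdh17, Nfasc, Gstp1, Apoe and Glul lost their calls, and 38 of the 39 genes fitted kept their direction. Lsamp was too low to be fitted there, with the other seed, without the shared barcodes, and without placebo mouse 1 or EPO mouse 4. Leaving out the shared barcodes gave 25 called genes, 23 of them among the 41, and without placebo mouse 1 there were 23.

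Over all members the same split mixed both kinds, as 91.4% of members with Ptgds and 48.7% of those without were high-myelin. Of 1185 genes 248 were called (20.9%), 128 higher (10.8%) and 120 lower (10.1%) with Ptgds. All 8 neuronal genes tested were lower, with a median of -2.58, and 11 of 23 myelin protein genes were higher. Genes with the smallest p included Tmod1 (1.71), Unc5b (1.41) and Abca2, a lipid transporter (1.19), on one side and Lsamp (-2.49), Map2, a dendritic microtubule protein (-2.21), and the synaptic vesicle protein Syt1 (-2.76) on the other. The count fell to 1 with another thinning seed, to 6 without placebo mouse 1 and to 8 without EPO mouse 4.

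Neuronal genes were lower in shallow members than in deep ones, and no myelin protein gene was called. In the 4 mice with at least 5 barcodes on both sides (placebo 1 and 5, EPO 4 and 6), 36 members with at most 1000 genes were set against 188 with more, and 94.4% and 57.4% of them were high-myelin. Of 712 genes edgeR called 15, all lower in shallow members (2.11%). Atp1b1, a sodium pump subunit abundant in neurons, changed by -4.71 ± 0.65, Snhg11 by -3.13 ± 0.58, the glutamate receptor Gria2 by -3.00 ± 0.58 and Olfm1 by -4.05 ± 0.81 (log2, SE). Of 6 neuronal genes tested 5 were called lower, and of 19 myelin protein genes 0 were called. The median of these 19 was 0.43 with 16 above 0, against -0.06 and 328 of 712 over all genes tested. The median myelin share was 18.6% in shallow and 11.9% in deep members. The rule counts detected genes, which depends on depth, and the sides held both kinds of members unequally. These calls therefore follow in part from the selection and are a description. Among high-myelin members alone 0 of 718 genes were called (0%), with 20 at an unadjusted p under 0.05 and 0 by DESeq2 and limma. Ctsl, a lysosomal protease, had the smallest p there at -2.33 ± 0.61 (edgeR adjusted p = 0.102). The count over all members was 12 without the shared barcodes, 1 without placebo mouse 1, 1 without EPO mouse 4, 7 without EPO mouse 6 and 100 without placebo mouse 5.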

How the data were processed

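The data deposited by the authors are raw UMI counts in a single table, with 20234 genes, 1000 barcodes per mouse and 9658910 UMIs in all. The submitters' processing notes name bcl2fastq 2.15, STAR 2.4.0 and mm10, with no role given. Missing values were set to 0. The rule was applied to every barcode, and members held between 100046 and 676707 UMIs per mouse.

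Counts were summed per mouse and tested in R 4.3.3 by edgeR 4.0.16 (quasi-likelihood, TMM, filterByExpr, adjusted p under 0.05), with DESeq2 1.42.0 and limma 3.58.1 as alternatives. Shares were compared by two-sided exact permutation tests over mice. Barcodes were thinned to 700 UMIs, and 1 shallower barcode outside the class was left out. Ptgds and the 14 rule genes were not counted as calls of the Ptgds split. Excess variance used genes with at least 10 UMIs in each mouse. CPM ratios to the other barcodes used a pseudocount of 5. Only the edgeR fit was run on simulated counts, with a fixed dispersion and no differences between mice. The permutation tests, thinning and excess variance were not checked in this way. Intervals cover counting error only.

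Genes were named by a rule, namely at most 10 on each side, ranked by adjusted p among those under 0.05, with 1 direction in every mouse (no overlap between treatments), or the 5 with the smallest p where none passed, the 20 with the highest ratio for the class, the rule genes, and members of gene lists. Members, rule and lists were chosen with earlier results of these data known. Alternatives varied the gene limit, the rule, mitochondrial limit, D number, scaling, filter, tool, splitting gene, seed and mice. Some genes are not reported here.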

Additional observations from a re-analysis of the deposited data

Results flagged for a closer look

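The myelin share of members' UMIs moved in opposite directions under the 2 D numbers. EPO minus placebo was 5.67 percentage points in D1, where EPO mouse 2 lay above placebo mice 1 and 3, and -10.6 percentage points in D2, where EPO mice 4 and 6 lay below placebo mouse 5. The difference between the D numbers was not tested, and each D number has 1 mouse in one of its groups. In D1 low-myelin members numbered 47 and 4 in placebo mice 1 and 3 and 2 in EPO mouse 2. In D2 they numbered 0 in placebo mouse 5 and 27 and 8 in EPO mice 4 and 6. Their part in the difference was not tested, and in high-myelin members the values were -0.185 and -1.98 percentage points.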

How the results depend on the processing

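No paired analysis was possible because the placebo mice (1, 3, 5) and EPO mice (2, 4, 6) share no number. Differences between treatments in the share of members (-10.7 to -1.68 percentage points with each mouse left out) and of high-myelin members (-5.01 to -0.890) kept their sign. The myelin share of UMIs reversed without placebo mouse 5 (1.58, range -4.63 to 1.58) and with at least 5 rule genes (1.39). In high-myelin members it reversed without placebo mouse 5 (0.351, range -1.49 to 0.351) and with a shorter list of myelin protein genes (0.0657). With each mouse left out, the count of genes between treatments stayed at 0 in both sets. With no filter on low counts, counts were 10 and 3 between treatments, 154 and 3 for shallow members, and 1085 for the Ptgds split, in part by construction since more genes are tested. Shallow members gave 4 genes by limma, 0 without any of the 5 negative genes, 0 in high-myelin members, and 1 to 100 with a mouse left out (0 to 1 in high-myelin members). The Ptgds split of all members gave 150 by limma, 31 without any negative gene, 0 split on all UMIs (5 mice), 395 by Apod, 531 by Car2 (5 mice), 1 with the other seed, 41 in high-myelin members, 73 without shared barcodes and 6 to 548 with a mouse left out. In high-myelin members it gave 16 by DESeq2 (which gave no adjusted p for 285 of 907), 20 by limma, 25 without shared barcodes, 140 by Apod (4 mice), 118 by Car2 (4 mice), 63 with the other seed (5 mice), 1 split on all UMIs (4 mice) and 23 to 50 with a mouse left out. Where fewer than 6 mice are given, the others had too few barcodes on a side, so both the split and the mice changed. Excess variance above 0 in all mice held for 4 of 7 myelin genes left after thinning (2 of 7 in high-myelin members), against 23 of 54 and 12 of 48 of all genes, and for 21 to 23 and 15 to 17 genes with a mouse left out. Ppp3ca (0.0115) and Atp2b1 (0.32) reversed in shallow high-myelin members, and Grb14 with Apod (-0.18) or Car2 (-0.29) as the splitting gene. The cause of these changes was not tested. Placebo mouse 3, with 17 members, and the median depth of 5289 UMIs limit the precision for low genes.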
